A study of Homo sapiens with 12 samples.

Results

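The EGR, NR4A and IER genes and ZFP36 are immediate-early genes, which a stimulus can switch on before any new protein has been made. Their behaviour was followed in an established line of human promyelocytic leukemia cells, HL-60/S4, with and without tumor necrosis factor alpha (TNF-α). The 10 genes EGR1, EGR2, EGR3, NR4A1, NR4A2, NR4A3, IER2, IER3, IER5 and ZFP36 were chosen by symbol, matched through their Ensembl identifiers, from the 58288 genes of the count table, and each matched 1 gene. RNA was sequenced from 12 libraries, 3 in each of 4 groups, each library from a flask of its own. Promyelocytes were undifferentiated cells, and granulocytes were the same cells after 4 days in all-trans retinoic acid (ATRA) at 1 µM. Cells were placed in fresh medium 2 h before treatment, promyelocytes at a higher cell density than granulocytes. The fresh medium of granulocytes again held ATRA at 1 µM. Within each cell type, cells received either 16 ng/ml TNF-α or water as the vehicle for 2 h, and all 4 groups were kept in medium supplemented with calcium. The flasks are cultures of 1 cell line, so the spread between libraries is that between flasks of this line. The promyelocyte and granulocyte experiments were run independently, so the cell type and the experiment cannot be told apart in any level or response that is compared between them. Library totals ranged from 22829189 to 31895061 read pairs assigned to genes, and 3 counts, the floor used here, stood at 0.0946 to 0.136 CPM (read counts scaled to a common library size).

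Immediate-early genes are usually induced by mitogen-activated protein kinases and calcium signals, which act on serum response factor bound at CArG boxes and on CREB bound at cAMP response elements (CRE). Tumor necrosis factor also drives several of them through NF-κB. Their mRNAs are short-lived, so that levels can rise and return within hours, and many of the proteins are transcription factors or feedback regulators that shape the later response. EGR1, EGR2 and EGR3 are zinc finger transcription factors that share a GC-rich target site and are known in myeloid cells for roles in monocyte and macrophage differentiation. NR4A1, NR4A2 and NR4A3 are orphan nuclear receptors that need no ligand. IER2 and IER5 are related nuclear proteins, IER3 is an unrelated regulator of survival and a known NF-κB target, and ZFP36 (tristetraprolin) binds AU-rich elements and speeds the decay of cytokine mRNAs.

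Promoter sequences are shown first, because the EGR genes responded in different ways while EGR1 and EGR2 share motifs upstream of a start. RefSeq promoter windows of assembly GRCh38.p14, from 250 bases before to 50 bases after each annotated start, were at hand for 7 of the 10 genes in 10 windows. None was at hand for EGR3, NR4A2 or IER3. The 250 bases before the start are printed in coding-strand orientation, 5′ to 3′, with matches to the motifs in capitals, for EGR1, for the third of 3 annotated starts of EGR2, for NR4A3, which has the most CRE cores, and for IER5, which has no marked match and rose in both cell types.
EGR1 (chr5:138465229-138465478, + strand): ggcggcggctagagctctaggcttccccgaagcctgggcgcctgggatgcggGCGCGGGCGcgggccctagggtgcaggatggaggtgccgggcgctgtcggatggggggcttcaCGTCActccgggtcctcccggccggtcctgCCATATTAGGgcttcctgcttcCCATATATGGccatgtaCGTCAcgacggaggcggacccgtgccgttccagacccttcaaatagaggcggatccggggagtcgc
EGR2, the third start (chr10:62816367-62816616, − strand): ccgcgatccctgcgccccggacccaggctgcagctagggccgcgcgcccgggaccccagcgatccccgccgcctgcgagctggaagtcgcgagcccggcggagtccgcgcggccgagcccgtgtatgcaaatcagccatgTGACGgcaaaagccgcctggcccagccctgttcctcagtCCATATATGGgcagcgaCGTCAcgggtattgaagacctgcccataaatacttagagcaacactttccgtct
NR4A3 (chr9:99821635-99821884, + strand): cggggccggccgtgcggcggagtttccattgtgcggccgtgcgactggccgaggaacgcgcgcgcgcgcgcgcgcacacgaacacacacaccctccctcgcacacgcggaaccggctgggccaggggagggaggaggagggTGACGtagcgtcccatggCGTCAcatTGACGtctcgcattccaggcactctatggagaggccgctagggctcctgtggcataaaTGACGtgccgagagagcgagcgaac
IER5 (chr1:181088450-181088699, + strand): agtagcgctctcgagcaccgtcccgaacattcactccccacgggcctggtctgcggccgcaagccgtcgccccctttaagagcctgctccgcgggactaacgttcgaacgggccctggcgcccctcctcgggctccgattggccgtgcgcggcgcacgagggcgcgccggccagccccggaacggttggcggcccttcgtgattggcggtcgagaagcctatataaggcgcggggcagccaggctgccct

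Motifs were searched on both strands of each whole window: the CArG box, the full CRE (TGACGTCA), its core (TGACG), the EGR site (GCGNGGGCG), the NR4A response element NBRE (AAAGGTCA), the NF-κB site, the AP-1 site (TGANTCA) and the ETS core (GGAA). A full CRE would also count as a CRE core. EGR1 held CArG boxes that begin at -105 and -83 (bases counted from the start), CRE cores at -135 and -66, and an EGR site at -198. The third EGR2 start had a CArG box at -71 between CRE cores at -110 and -54, and no EGR site. Of 35116 promoter windows of the same length, 1.29% held a CArG box, 24.6% a CRE core and 9.43% an EGR site. The second EGR2 start had the single NF-κB match among the 10 windows, at -130, and an EGR site at 9 bases after the start, while the first start had neither. NF-κB matches occurred in 11.3% of all windows. NR4A3 held CRE cores at -109, -91, -83 and -25, and IER2 held 1, at -140. The windows of IER5, ZFP36 and both starts of NR4A1 held ETS cores and none of the other letters, and 95.5% of all windows hold an ETS core. No window of the 7 genes held a full CRE (1.85% of all windows), an NBRE (1.22%) or an AP-1 site (7.71%). A match is a run of letters, and no match says only that these letters are not in the window.

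**Figure D1:**
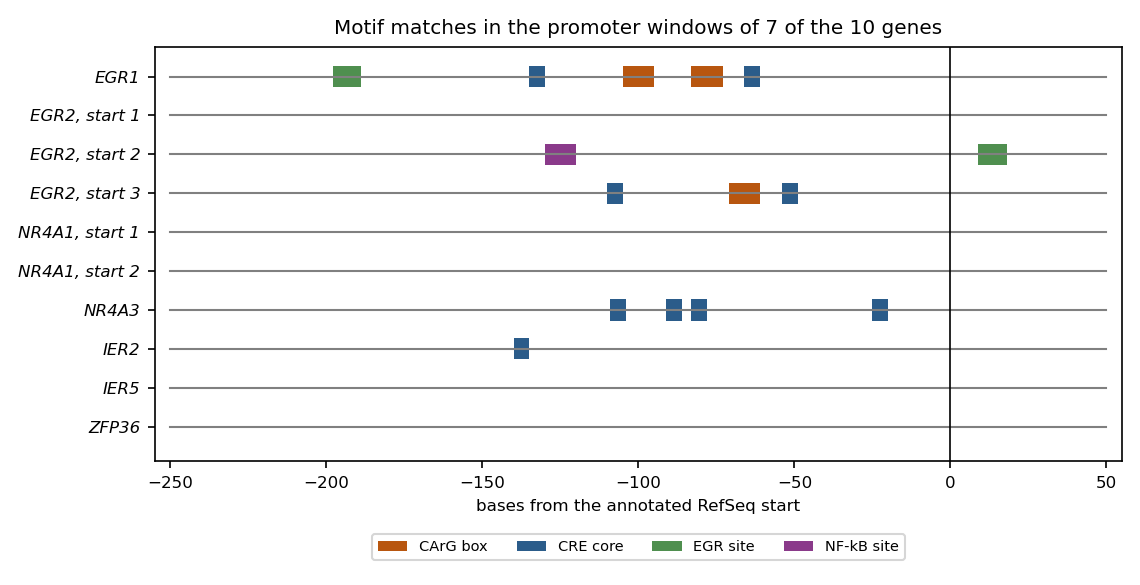
Motif matches in the 10 promoter windows of 7 genes, drawn by distance in bases from the annotated RefSeq start (horizontal axis), 1 line per start, with ETS cores left out. EGR1 and the third EGR2 start carry CArG boxes beside CRE cores, NR4A3 carries 4 CRE cores, and the lines of NR4A1, IER5 and ZFP36 are bare.

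In promyelocytes, IER3, IER5, ZFP36 and NR4A3 were higher after 2 h of TNF-α, and EGR1 was lower. In granulocytes, IER3, EGR2, EGR3, IER5, NR4A3, IER2 and ZFP36 were higher, and EGR1 was again lower. EGR1, the member that most often stands for immediate-early induction, was therefore the only one of the 10 genes that fell with TNF-α in both cell types in these fits. Each cell type was tested alone with edgeR's quasi-likelihood test, and p-values were adjusted over all genes tested by the Benjamini-Hochberg method with a threshold of 0.05. All 10 genes passed the filter on low counts in promyelocytes, and 4 were called higher and 1 lower, where 8.15% and 6.65% of the 16250 genes tested were called in these directions. In granulocytes 9 of the 10 passed, without NR4A1, and 7 were called higher and 1 lower, where 24.4% and 24.8% of 16944 genes were. A gene is said to have risen or fallen only where this test called it.

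**Figure D2:**
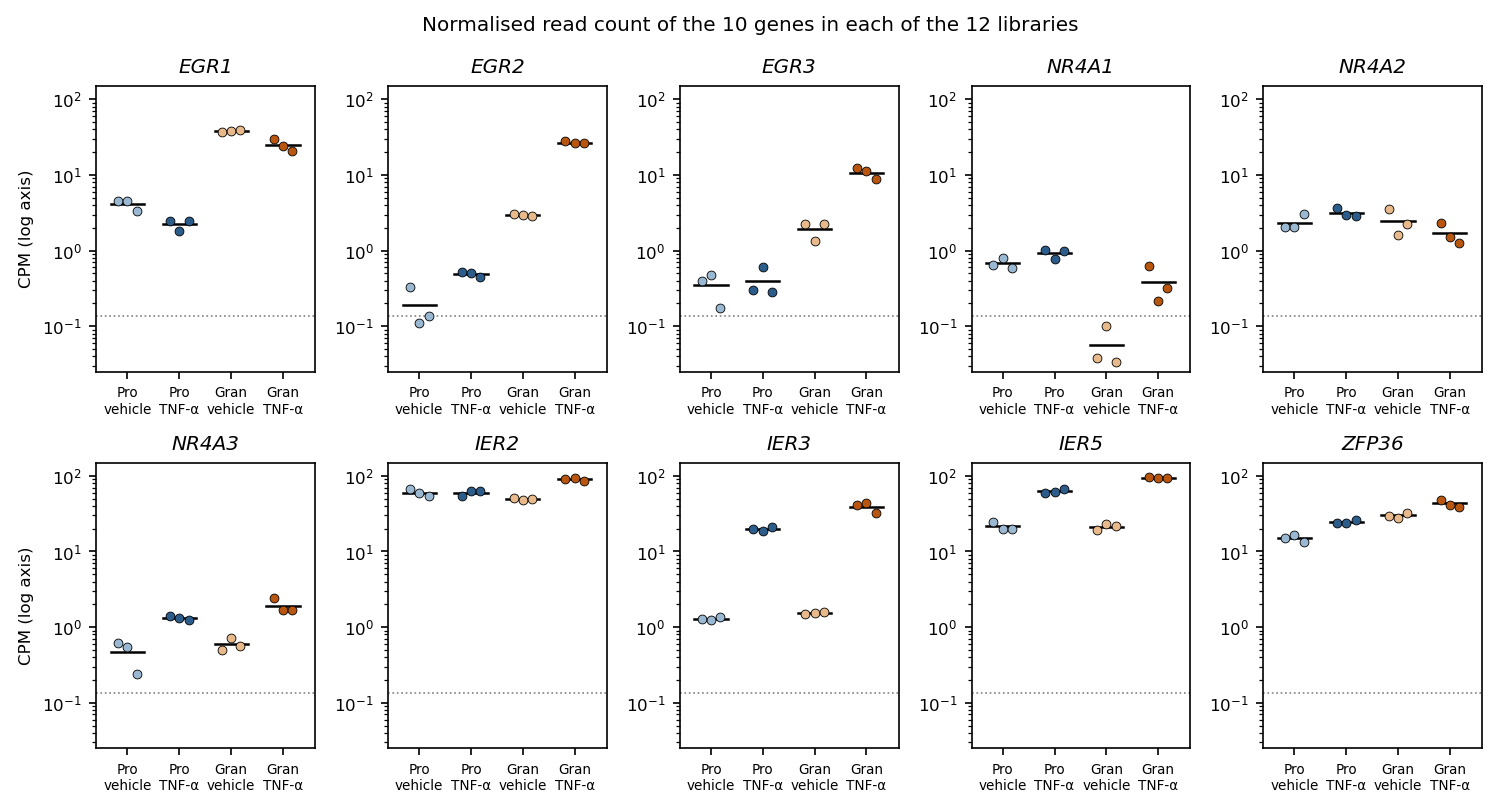
Normalised read count in CPM (log axis) of each gene in each library, with 3 points per group and the group mean as a bar; Pro and Gran are promyelocytes and granulocytes, and the dotted line is the highest floor of 3 counts, 0.136 CPM. IER3 and IER5 step up with TNF-α in both cell types, EGR2 and EGR3 stand highest in granulocytes with TNF-α, and EGR1 steps down in both.

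EGR1 (ENSG00000120738.7, chromosome 5, 138465490 to 138469315, + strand, GRCh38) is the best known EGR factor, and the window printed above lies directly upstream of it. In promyelocytes its level was 4.51, 4.49 and 3.35 CPM with vehicle and 2.48, 1.82 and 2.49 CPM with TNF-α. In granulocytes it was 37.1, 38.1 and 38.8 CPM with vehicle and 29.9, 24.5 and 20.8 CPM with TNF-α. In neither cell type did the TNF-α libraries overlap the vehicle libraries. EGR1 fell by 0.83 on the log2 scale in promyelocytes (SE 0.19, adjusted p = 0.00414, 1.78-fold lower) and by 0.62 in granulocytes (SE 0.08, adjusted p = 2.42e-08, 1.53-fold lower). The responses differed by 0.26 (SE 0.20, 95% interval -0.13 to 0.64, adjusted p = 0.391), so a difference between cell types was not shown.

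EGR2 (ENSG00000122877.15, chromosome 10, 62811996 to 62919900, − strand) is the family member that also directs myelination. In granulocytes it stood at 3.08, 2.91 and 2.85 CPM with vehicle and 28.1, 26.4 and 26.1 CPM with TNF-α. It rose 9.02-fold (log2 3.17, SE 0.10, adjusted p = 1.47e-25), with little spread in either group. In promyelocytes it was close to the floor, with 10, 3 and 4 counts in the vehicle libraries and 14 counts in each TNF-α library. Every TNF-α library was above every vehicle library there, but the difference of 1.33 on the log2 scale (SE 0.49, adjusted p = 0.0768) was not called. That call turned on the fit and on 1 library: it was made when all 12 libraries were fitted together (log2 1.29, adjusted p = 0.0137) and when vehicle promyelocyte library 1, which held 10 counts, was left out (log2 1.94, adjusted p = 0.0447).

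EGR3 (ENSG00000179388.8), itself often induced through the other EGR factors, followed EGR2. In granulocytes the vehicle libraries held 2.23, 1.36 and 2.25 CPM and the TNF-α libraries 12.2, 11.2 and 8.86 CPM. The groups were far apart, and the gene rose 5.51-fold (log2 2.46, SE 0.16, adjusted p = 6.5e-16). In promyelocytes it had 12, 13 and 5 counts with vehicle and 8, 17 and 9 with TNF-α, which overlapped (log2 0.21, SE 0.49, adjusted p = 0.819). Leaving out vehicle library 3 or TNF-α library 2 turned the sign of this small difference.

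Among the NR4A receptors, NR4A3 (ENSG00000119508.17, chromosome 9, 99821855 to 99866891, + strand) was the member that rose in both cell types, from low counts. Promyelocytes held 19, 15 and 7 counts with vehicle and 37, 37 and 40 with TNF-α, and granulocytes 13, 22 and 17 with vehicle and 53, 47 and 37 with TNF-α. The groups did not overlap in either cell type. NR4A3 rose 2.84-fold in promyelocytes (log2 1.5, SE 0.34, adjusted p = 0.00459) and 3.12-fold in granulocytes (log2 1.64, SE 0.30, adjusted p = 2.22e-05). The responses differed by 0.18 on the log2 scale (95% interval -0.74 to 1.09), an interval wide enough to hold a difference in either direction.

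NR4A1 (ENSG00000123358.19, Nur77, chromosome 12, 52022832 to 52059507, + strand) is best known for cell death and lymphocyte signaling. In promyelocytes it had 20, 22 and 17 counts with vehicle and 27, 22 and 31 with TNF-α, which overlap at 22 (log2 0.46, SE 0.32, adjusted p = 0.388). In granulocytes it had 1, 3 and 1 counts with vehicle, all at or under the floor, and 14, 6 and 7 with TNF-α, and the filter left it out of the granulocyte test. The ratio of the summed counts, 27 against 5 after scaling to library size, was 6.44 with a 95% interval of 2.44 to 21.4 that covers counting error only. In the fit of all 12 libraries, whose filter it passed, the same difference was 2.62 on the log2 scale (SE 0.64, adjusted p = 0.00161).

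NR4A2 (ENSG00000153234.13, Nurr1, chromosome 2, 156324432 to 156342348, − strand), known for its part in dopamine neurons, was called in neither cell type. In promyelocytes it stood at 2.03, 2.02 and 3.0 CPM with vehicle and 3.69, 3.0 and 2.87 CPM with TNF-α (log2 0.46, SE 0.20, adjusted p = 0.154). In granulocytes it stood at 3.58, 1.59 and 2.28 CPM with vehicle and 2.31, 1.5 and 1.27 CPM with TNF-α (log2 -0.56, SE 0.26, adjusted p = 0.0727). The groups overlapped in both, and the differences had opposite signs. Single libraries decided these calls: without vehicle promyelocyte library 3 the first was called (log2 0.68, adjusted p = 0.0399), and the second was called without vehicle granulocyte library 2 (log2 -0.80, adjusted p = 0.0146), without TNF-α granulocyte library 1 (log2 -0.82, adjusted p = 0.00810) or with no filter on low counts (log2 -0.56, adjusted p = 0.0420).

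IER3 (ENSG00000137331.11, IEX-1, chromosome 6, 30743199 to 30744554, − strand), the survival regulator, had the largest change of the 10 genes in both cell types. Vehicle libraries held 1.27, 1.25 and 1.35 CPM in promyelocytes and 1.5, 1.56 and 1.58 CPM in granulocytes. With TNF-α the level was 19.5, 18.5 and 20.8 CPM in promyelocytes and 40.7, 43.2 and 32.5 CPM in granulocytes. IER3 rose 15.4-fold in promyelocytes (log2 3.95, SE 0.13, adjusted p = 7.21e-15) and 24.8-fold in granulocytes (log2 4.63, SE 0.12, adjusted p = 2.58e-28). Ordered by fold change among all genes tested, it ranked 31 of 16250 and 79 of 16944.

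IER5 (ENSG00000162783.10, chromosome 1, 181088712 to 181092899, + strand), a nuclear protein known to work with heat shock factor 1, also rose in both. The vehicle libraries were alike across the cell types, at 24.7, 20.01 and 20.06 CPM in promyelocytes and 19.0, 23.1 and 21.6 CPM in granulocytes. With TNF-α they reached 58.6, 61.0 and 66.9 CPM in promyelocytes and 96.8, 93.6 and 92.4 CPM in granulocytes, so that the TNF-α groups did not overlap each other. The rise was 2.93-fold (log2 1.55, SE 0.08, adjusted p = 1.21e-11) and 4.38-fold (log2 2.13, SE 0.06, adjusted p = 1.9e-26). Over all genes tested, 8.15% were called higher in promyelocytes and 24.4% in granulocytes. Of 8 heat shock genes, 1 of 7 tested was higher in promyelocytes and 4 of 8 in granulocytes, and 0 were lower. Their summed level lay between 4835 and 5988 CPM with vehicle and between 5652 and 6678 CPM with TNF-α in promyelocytes, and between 2839 and 2884 CPM and between 3133 and 3571 CPM in granulocytes. Most of the vehicle sums was HSPA8 and HSP90AA1, the second named after its values were seen. They stood at 2660 and 2313 CPM in vehicle promyelocytes and at 1455 and 1103 CPM in vehicle granulocytes. Only HSPA8 was called in promyelocytes (log2 0.33, adjusted p = 0.00843). HSPA1A and HSPA1B, named likewise, were called in neither cell type. The part of the heat shock genes in the IER5 values was not tested.

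IER2 (ENSG00000160888.6, chromosome 19, 13150415 to 13154908, + strand), which shares its N-terminal region with IER5, behaved differently in the cell types. In promyelocytes it stood at 66.2, 58.5 and 53.6 CPM with vehicle and 53.6, 63.0 and 63.5 CPM with TNF-α. These values overlapped (log2 0.04, SE 0.08, 95% interval -0.11 to 0.19, adjusted p = 0.777), and the sign turned without vehicle library 3. In granulocytes it went from 51.2, 47.8 and 49.6 CPM to 90.8, 94.7 and 86.6 CPM, with no overlap, and rose 1.82-fold (log2 0.86, SE 0.05, adjusted p = 3.18e-16).

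ZFP36 (ENSG00000128016.5, chromosome 19, 39406813 to 39409412, + strand), the decay factor, rose by less than IER3 or IER5. In promyelocytes it stood at 14.9, 16.3 and 13.5 CPM with vehicle and 23.5, 24.1 and 26.4 CPM with TNF-α, and in granulocytes at 29.6, 27.9 and 32.7 CPM with vehicle and 48.3, 41.8 and 39.2 CPM with TNF-α. No library of one treatment overlapped the other within a cell type. The rise was 1.69-fold in promyelocytes (log2 0.76, SE 0.09, adjusted p = 2.45e-06) and 1.42-fold in granulocytes (log2 0.50, SE 0.07, adjusted p = 1.44e-07).

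**Figure D3:**
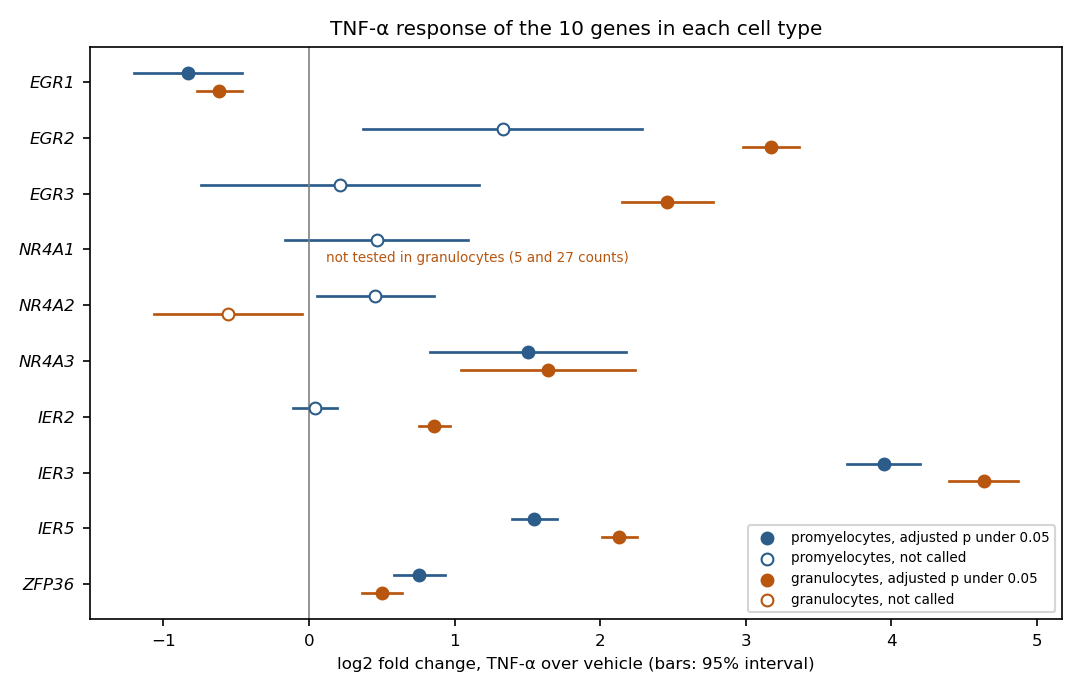
Log2 fold change of TNF-α over vehicle with its 95% interval (horizontal axis) for each gene in promyelocytes (blue) and granulocytes (orange), filled where the adjusted p was under 0.05. IER3 lies furthest right in both, EGR1 lies left of 0 in both, and EGR2, EGR3 and IER2 are filled in granulocytes alone.

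**Figure D4:**
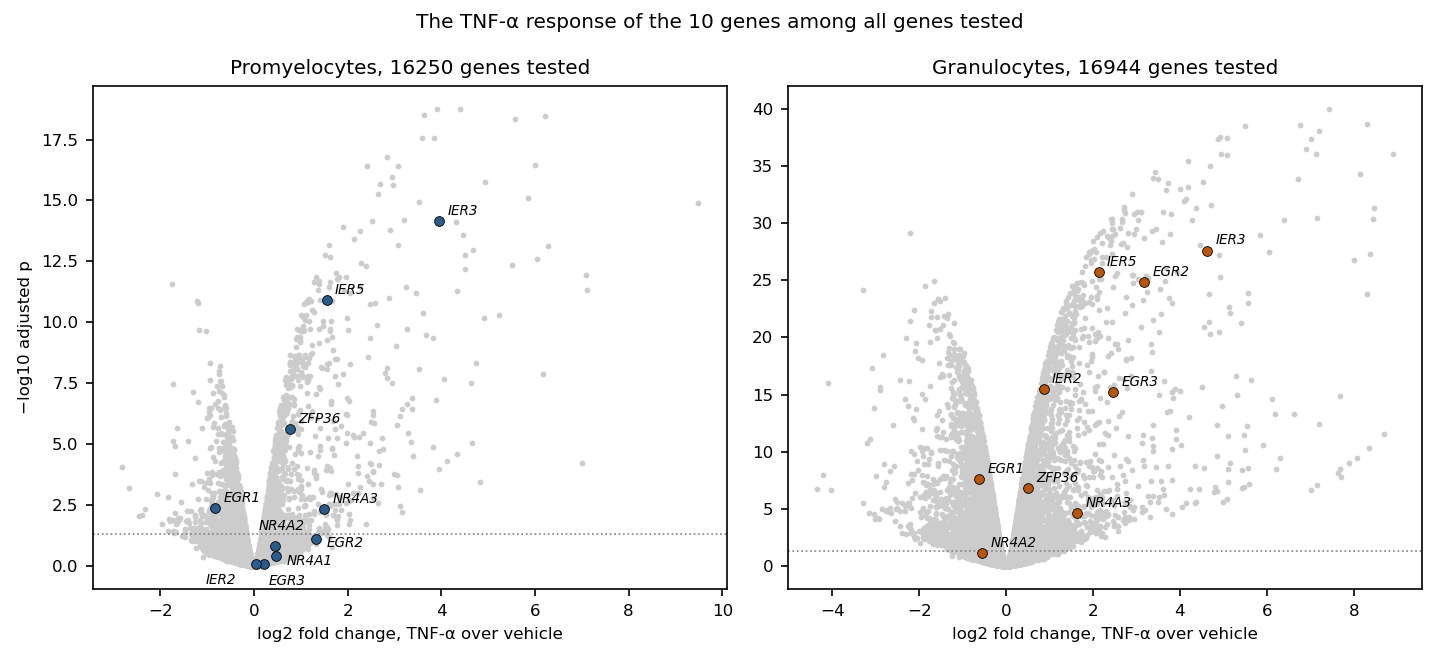
Log2 fold change of TNF-α over vehicle (horizontal axis) against −log10 adjusted p (vertical axis, scaled separately in each panel) for every gene tested, in grey, with the immediate-early genes in colour and the threshold of 0.05 dotted. IER3 and IER5 stand among the genes with small adjusted p in both panels, and EGR2 and EGR3 move there in granulocytes.

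Whether the response itself differed between the cell types was tested as an interaction in the fit of all 12 libraries, and the experiment cannot be told apart from the cell type in it. For 6 of the 10 genes the change with TNF-α was higher in granulocytes and for 0 lower, where 14.1% and 9.88% of 18124 genes were called in these directions. Of all genes called in this test 58.9% were higher, and this share was 48.4% with DESeq2's size factors and 47.6% with upper-quartile scaling, which moved the median of all genes by -0.05 and -0.06 on the log2 scale. Granulocytes exceeded promyelocytes by 2.29 for EGR3 (SE 0.50, adjusted p = 0.00117), 1.89 for EGR2 (SE 0.44, adjusted p = 0.00224), 0.86 for IER2 (SE 0.10, adjusted p = 3.25e-07), 0.72 for IER3 (SE 0.22, adjusted p = 0.0154) and 0.62 for IER5 (SE 0.11, adjusted p = 0.000113). EGR3 and EGR2 thus had the widest gaps among these, and IER2 the smallest error. The sixth was NR4A1, at 2.18 (SE 0.75, adjusted p = 0.0360), which rests on 5 counts in vehicle granulocytes.

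The EGR2 call was lost without vehicle promyelocyte library 1 (log2 1.26, adjusted p = 0.182). The NR4A1 call was lost without vehicle promyelocyte library 1 or 2, TNF-α promyelocyte library 2, vehicle granulocyte library 1 or 3 or TNF-α granulocyte library 1, with log2 differences of 1.65 to 2.81 and adjusted p of 0.0207 to 0.159 over the 12 fits that each leave out 1 library. It was also lost with no filter, with DESeq2 and with GC and length trends removed (adjusted p = 0.0568, 0.0650 and 0.0673). Removing those trends lost the IER3 call (log2 0.50, adjusted p = 0.0904) and made one for ZFP36 (log2 -0.43, adjusted p = 0.00175). NR4A2 had the one sizeable difference in the other direction, -0.98 (SE 0.36, 95% interval -1.69 to -0.26, adjusted p = 0.0521). It was called in 5 of the 6 other settings tried, among them both other scalings (log2 -1.03 and -1.04, adjusted p = 0.0381 and 0.0367). Leaving out vehicle promyelocyte library 3, TNF-α promyelocyte library 3, vehicle granulocyte library 2 or TNF-α granulocyte library 1 also made it (adjusted p = 0.0203, 0.0490, 0.0143 and 0.0190). ZFP36 differed by -0.22 (95% interval -0.45 to 0.02, adjusted p = 0.213).

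Levels between the cell types were compared in the same fit, separately for vehicle and for TNF-α libraries. With vehicle, granulocytes held more EGR2 (14.7-fold, log2 3.88, SE 0.25), EGR1 (9.22-fold, log2 3.21, SE 0.12), EGR3 (5.54-fold, log2 2.47, SE 0.32) and ZFP36 (2.02-fold, log2 1.02, SE 0.09) than promyelocytes. The 3 EGR genes were thus all at a higher level in granulocytes before TNF-α was added. The largest adjusted p of these 4 was 1.43e-07. Promyelocytes held more NR4A1, at 59 against 5 counts, a ratio of 11.7 with a 95% counting interval of 4.74 to 37.4 (log2 -3.46, SE 0.57, adjusted p = 6.05e-06), and slightly more IER2 (log2 -0.26, SE 0.07, adjusted p = 0.00204). That made 4 genes higher and 2 lower, where 35.7% and 36.3% of 18124 genes were called. NR4A2, NR4A3, IER3 and IER5 were not called, with 95% intervals of -0.43 to 0.56, -0.36 to 1.06, -0.13 to 0.64 and -0.19 to 0.14 on the log2 scale. Upper-quartile scaling moved the median of all genes by 0.13 in this comparison, and under it the IER2 difference was -0.13 and no longer called (adjusted p = 0.0789).

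With TNF-α, 7 genes were higher in granulocytes and 2 lower, where 37.8% and 34.2% of genes were. EGR2 was 54.6-fold higher (log2 5.77, SE 0.16), EGR3 by log2 4.75 (SE 0.27) and EGR1 11.01-fold (log2 3.46, SE 0.14). IER3, ZFP36, IER5 and IER2 were 1.98-, 1.74-, 1.52- and 1.51-fold higher, and the largest adjusted p of these 7 was 3.45e-08. NR4A1 (log2 -1.28, SE 0.41, adjusted p = 0.00771) and NR4A2 (log2 -0.91, SE 0.26, adjusted p = 0.00309) were lower in granulocytes. The NR4A1 call was lost without TNF-α granulocyte library 2 (log2 -0.96, adjusted p = 0.0655). NR4A3 did not pass the test (log2 0.53, 95% interval -0.02 to 1.08).

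The order of the 4 groups by level sorted the genes into kinds. EGR1 stood highest in vehicle granulocytes (38.0 ± 0.835 CPM, SD, n = 3), then TNF-α granulocytes (25.1 ± 4.57), vehicle promyelocytes (4.12 ± 0.664) and TNF-α promyelocytes (2.27 ± 0.384), and each neighbour in that order differed. EGR2 ran from TNF-α granulocytes (26.9 ± 1.10 CPM) through vehicle granulocytes (2.95 ± 0.118) and TNF-α promyelocytes (0.489 ± 0.0438) to vehicle promyelocytes (0.192 ± 0.118), again with each step called in the 12-library fit. EGR3 had the same order, at 10.8 ± 1.72, 1.95 ± 0.510, 0.397 ± 0.182 and 0.348 ± 0.158 CPM, but the last pair did not differ (adjusted p = 0.831). IER3 was ordered by treatment first, with TNF-α granulocytes (38.8 ± 5.60 CPM) above TNF-α promyelocytes (19.6 ± 1.16). Vehicle granulocytes (1.54 ± 0.0388) and vehicle promyelocytes (1.29 ± 0.0499) were not told apart by the test (adjusted p = 0.240), though their libraries did not overlap. IER5 was ordered by treatment as well, at 94.3 ± 2.28 and 62.2 ± 4.28 CPM with TNF-α, while its vehicle groups, at 21.6 ± 2.71 and 21.2 ± 2.08, did not differ (adjusted p = 0.802). NR4A3 was the third gene ordered by treatment. By cell type, neither its TNF-α groups (1.92 ± 0.414 and 1.33 ± 0.0658 CPM, adjusted p = 0.0937) nor its vehicle groups (0.600 ± 0.117 and 0.471 ± 0.202 CPM, adjusted p = 0.398) were called different. Its TNF-α libraries did not overlap between the cell types.

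ZFP36 was ordered by cell type and then by treatment, from TNF-α granulocytes (43.1 ± 4.71 CPM) through vehicle granulocytes (30.1 ± 2.40) and TNF-α promyelocytes (24.7 ± 1.54) to vehicle promyelocytes (14.9 ± 1.40), with each step called. IER2 stood apart in TNF-α granulocytes (90.7 ± 4.06 CPM), while TNF-α and vehicle promyelocytes (60.1 ± 5.61 and 59.4 ± 6.33) did not differ and vehicle granulocytes were lowest (49.5 ± 1.66). NR4A1 stepped down from TNF-α promyelocytes (0.926 ± 0.123 CPM) through vehicle promyelocytes (0.683 ± 0.114) and TNF-α granulocytes (0.388 ± 0.218) to vehicle granulocytes (0.0571 ± 0.0366), and only the last step was called (adjusted p = 0.00161). NR4A2 had means between 1.69 ± 0.545 and 3.19 ± 0.440 CPM, and no neighbours in its order differed.

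Within the EGR and NR4A families, and within the IER genes grouped by name, the share of each gene was compared per length, as CPM per kilobase of exon. EGR1 made up 91.6% ± 2.07 (SD, n = 3) of the summed EGR level in vehicle promyelocytes and 90.98% ± 0.886 in vehicle granulocytes. With TNF-α its share was 76.7% ± 6.76 in promyelocytes and 45.4% ± 2.88 in granulocytes, while EGR2 went from 6.01% ± 0.339 to 41.9% ± 3.42 in granulocytes and EGR3 from 3.01% ± 0.774 to 12.6% ± 0.824. The EGR message of TNF-α granulocytes was therefore a mixture of EGR1 and EGR2 at about like levels, where vehicle granulocytes held mostly EGR1. The summed EGR level went from 13.3 ± 0.251 to 17.5 ± 2.08 CPM per kilobase in granulocytes and from 1.44 ± 0.256 to 0.936 ± 0.0832 in promyelocytes.

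NR4A2 made up the largest share of the NR4A level in all 4 groups, from 54.2% ± 2.88 in TNF-α granulocytes to 84.3% ± 8.0 in vehicle granulocytes. NR4A3 went from 14.4% ± 6.93 to 39.3% ± 3.0 in granulocytes and from 10.3% ± 5.18 to 18.5% ± 1.25 in promyelocytes. The summed NR4A level went from 0.761 ± 0.0997 to 1.14 ± 0.130 CPM per kilobase in promyelocytes. In granulocytes this sum was 0.729 ± 0.234 with vehicle and 0.784 ± 0.230 with TNF-α. The 3 IER genes were grouped by name, as IER3 is unrelated to IER2 and IER5. Among them IER2 made up 76.0% ± 0.926 with vehicle and 40.0% ± 2.03 with TNF-α in promyelocytes, and 72.2% ± 2.35 and 36.7% ± 1.18 in granulocytes. IER3 went from 3.77% ± 0.483 to 29.7% ± 1.71 and from 5.10% ± 0.116 to 35.3% ± 2.72, so that with TNF-α the 3 IER genes stood at closer levels. The summed IER level went from 25.5 ± 2.65 to 48.9 ± 3.10 CPM per kilobase in promyelocytes and from 22.3 ± 0.127 to 80.6 ± 5.69 in granulocytes. These shares are descriptions and were not tested.

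**Figure D5:**
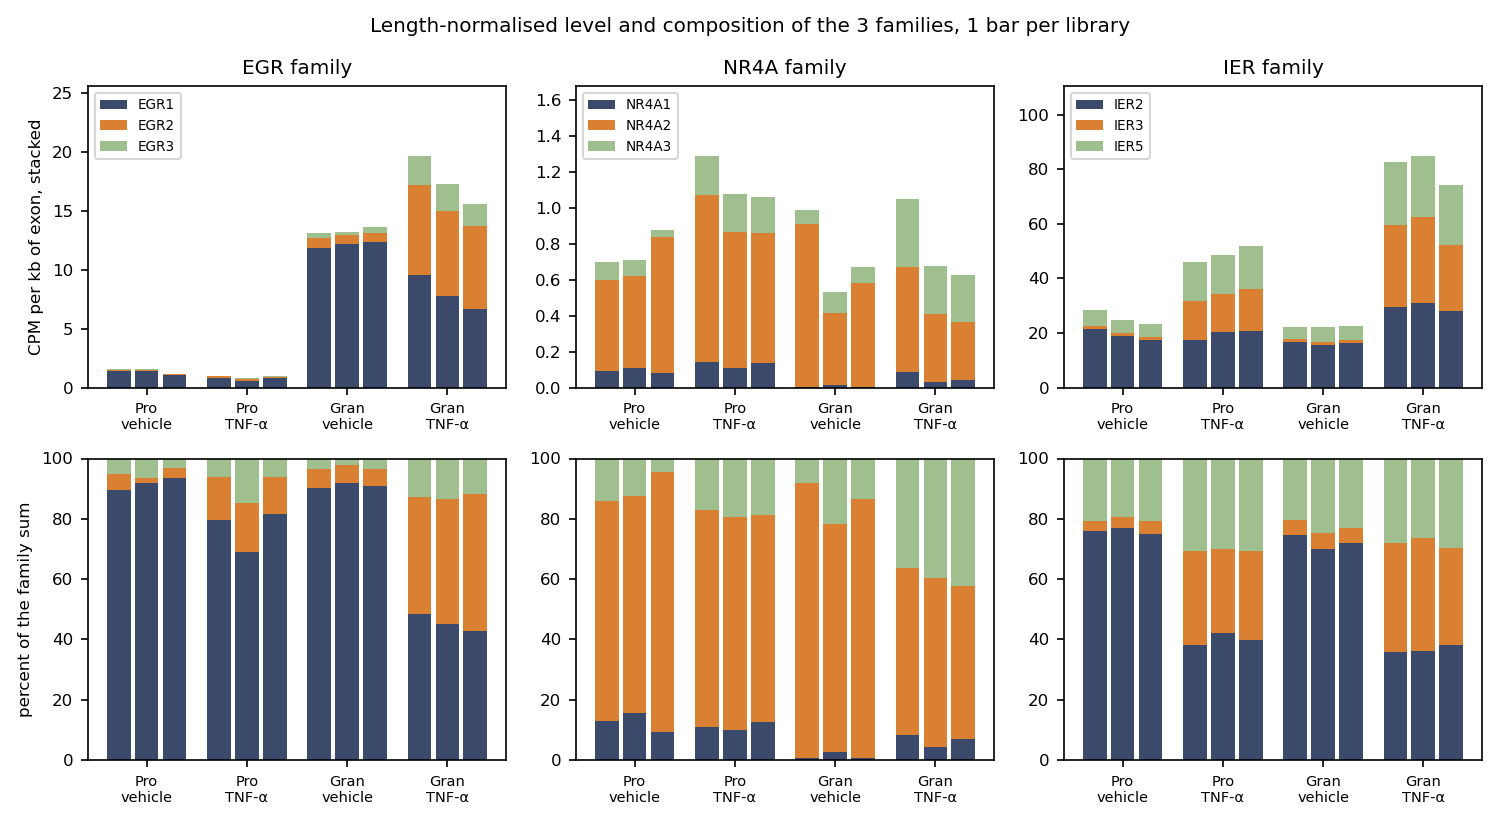
Stacked length-normalised level (upper row, CPM per kilobase of exon, with a scale of its own in each panel) and percent of the family sum (lower row) of the EGR, NR4A and IER genes, 1 bar per library in each of the 4 groups. The IER genes are grouped by name, and IER3 is unrelated to the others. EGR1 shrinks from 90.98% to 45.4% of the EGR sum in granulocytes as EGR2 and EGR3 grow, and IER3 goes from a thin band to 29.7% and 35.3% of the IER sum.

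Other immediate-early genes gave the setting. Of 53 listed, 47 were tested in promyelocytes, where 14 were higher and 11 lower with a median log2 fold change of 0.11, against -0.0094 over all genes. In granulocytes 46 were tested, 29 were higher and 5 lower, and the median was 0.75, against -0.0047 over all genes. Over all genes tested, 8.15% were called higher and 6.65% lower in promyelocytes, and 24.4% and 24.8% in granulocytes. These shares are the setting for the counts of each list below as well. The NF-κB inhibitor NFKBIA rose from 23.3 ± 1.22 to 345 ± 2.17 CPM in promyelocytes (log2 3.91, adjusted p = 1.75e-19) and from 13.1 ± 0.565 to 603 ± 30.1 CPM in granulocytes (log2 5.51, adjusted p = 3.37e-39). TNFAIP3, the deubiquitinase A20, rose by log2 3.63 (adjusted p = 3.03e-19) and log2 5.08 (adjusted p = 3.56e-38). MYC, the growth factor-induced transcription factor, fell in promyelocytes from 1880 ± 115 to 797 ± 52.6 CPM (log2 -1.21, adjusted p = 1.37e-11). SIK1, a kinase that restrains CREB coactivators, fell in granulocytes from 3.61 ± 0.676 to 1.06 ± 0.325 CPM (log2 -1.79, adjusted p = 6.1e-08) and by less in promyelocytes (log2 -0.44, adjusted p = 0.0108). The growth factor HBEGF fell in granulocytes from 24.0 ± 0.897 to 16.6 ± 2.65 CPM (log2 -0.54, adjusted p = 1.44e-06).

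The 24 kinases and factors that act on immediate-early promoters were all tested. In promyelocytes 3 were higher and 3 lower, where 8.15% and 6.65% of all genes were. In granulocytes 10 were higher and 8 lower, where 24.4% and 24.8% of all genes were. The medians were 0.03 in both. CREB1, which binds the CRE, rose from 84.3 ± 0.0794 to 134 ± 4.13 CPM in promyelocytes (log2 0.69, adjusted p = 1.67e-08), as did the kinase RPS6KA3 (log2 0.25, adjusted p = 0.00345). ELK3, a partner of serum response factor known as a repressor, fell from 44.1 ± 1.12 to 31.3 ± 0.944 CPM in promyelocytes (log2 -0.47, adjusted p = 2.48e-05) and from 60.3 ± 2.96 to 21.2 ± 1.47 CPM in granulocytes (log2 -1.52, adjusted p = 1.82e-21). The serum response factor coactivator MRTFA fell in promyelocytes (log2 -0.45, adjusted p = 1.91e-05) and by less in granulocytes (log2 -0.13, adjusted p = 0.0305). Its relative MRTFB rose in granulocytes from 1.75 ± 0.479 to 3.33 ± 0.655 CPM (log2 0.92, adjusted p = 0.000584). In granulocytes the CREB coactivator CRTC3 rose from 21.9 ± 0.530 to 65.4 ± 4.51 CPM (log2 1.56, adjusted p = 4.18e-22), and RPS6KA5, a kinase of CREB and histones, fell (log2 -0.53, adjusted p = 5.22e-08).

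Of 10 partners and paralogs of the members, 9 were tested, with 1 higher and 3 lower in promyelocytes and 5 higher and 3 lower in granulocytes. The EGR corepressors rose in granulocytes, as EGR2 and EGR3 did. NAB1 rose from 44.2 ± 2.22 to 121 ± 5.82 CPM (log2 1.44, adjusted p = 7.99e-23) and NAB2 from 20.7 ± 1.09 to 95.9 ± 5.89 CPM (log2 2.20, adjusted p = 3.03e-27). In promyelocytes NAB1 rose by log2 0.59 (adjusted p = 8.96e-07). ZFP36L2, a paralog of ZFP36, fell where ZFP36 rose, from 251 ± 9.34 to 107 ± 8.48 CPM in promyelocytes (log2 -1.20, adjusted p = 1.55e-11) and from 222 ± 8.83 to 161 ± 3.09 CPM in granulocytes (log2 -0.47, adjusted p = 2.27e-10). IER5L, a relative of IER5, fell in promyelocytes from 4.57 ± 1.43 to 2.56 ± 0.375 CPM (log2 -0.81, adjusted p = 0.0102) and rose in granulocytes (log2 0.73, adjusted p = 1.29e-05). RXRB, a retinoid X receptor and so of the family that pairs with NR4A1 and NR4A2, fell in granulocytes (log2 -0.31, adjusted p = 8.15e-05). Its relative RXRA, named after its values were seen, rose there (log2 0.17, adjusted p = 0.00598) and fell in promyelocytes (log2 -0.28, adjusted p = 0.00414).

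mRNAs known as ZFP36 targets were higher with TNF-α, as ZFP36 was, where they were expressed. Of 12 listed, 6 were tested in promyelocytes with 5 higher and 0 lower (median log2 2.28), and 7 in granulocytes with 7 higher and 0 lower (median log2 3.82). The one not called was the chemokine CXCL2 in promyelocytes, at 0.380 and 1.10 CPM (adjusted p = 0.0522), named after its value was seen. In granulocytes CXCL2 (0.241 and 1.62 CPM) and CXCL3 (0.0335 and 0.549 CPM), named likewise, passed the filter only through their TNF-α libraries. They could hardly have been called lower, and the granulocyte median is the value of CXCL3. The chemokine CCL3 rose from 0.459 ± 0.140 to 10.4 ± 0.504 CPM in promyelocytes (log2 4.51, adjusted p = 6.37e-13) and from 1.08 ± 0.0297 to 130 ± 9.03 CPM in granulocytes (log2 6.89, adjusted p = 3.47e-37). CXCL8 rose in promyelocytes from 19.1 ± 1.58 to 227 ± 10.5 CPM (log2 3.6, adjusted p = 2.68e-18) and in granulocytes by log2 4.92 (adjusted p = 2.94e-38). IL1B rose in granulocytes from 10.0 ± 0.496 to 315 ± 28.8 CPM (log2 4.96, adjusted p = 8.45e-37) and in promyelocytes by log2 2.66 (adjusted p = 5.61e-16). Of 11 genes known as EGR targets, 8 were tested in promyelocytes with 5 higher and 0 lower, and 9 in granulocytes with 8 higher and 1 lower. The growth factor PDGFA rose by log2 3.20 in promyelocytes (adjusted p = 6.18e-15) and by 5.58 in granulocytes (adjusted p = 1.2e-24). In granulocytes PDGFA stood at 0.374 CPM with vehicle (SD 0.246) and 17.6 CPM with TNF-α. Like CXCL2 and CXCL3 it passed the filter there only through its TNF-α libraries. PDGFA is counted among the 8 higher, but it could hardly have been called lower. The adhesion molecule ICAM1 rose in promyelocytes from 1.62 ± 0.332 to 119 ± 8.90 CPM (log2 6.22, adjusted p = 3.36e-19) and in granulocytes by log2 2.41 (adjusted p = 3.59e-29). F3, tissue factor, rose in granulocytes from 5.35 ± 1.04 to 74.8 ± 6.40 CPM (log2 3.78, adjusted p = 8.31e-30) and in promyelocytes by log2 2.63 (adjusted p = 1.28e-10). Several genes of both lists are also known NF-κB targets.

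The genes whose levels ran most like each member over the 12 libraries were taken from 13794 genes with a mean of at least 1 CPM, by Pearson's r of log2 CPM. For IER3 they were NFKB2 (r = 0.998) and TNFAIP3 (r = 0.994), and for IER5 the same pair (r = 0.994 and 0.993). EGR1 ran with ZNF385A (r = 0.998), EGR2 with LAMB3 (r = 0.997) and PMAIP1 (r = 0.996), and EGR3 with TOM1 (r = 0.984) and LYPLA2 (r = 0.983). For ZFP36 they were CHST11 (r = 0.986) and HIVEP2 (r = 0.985), for IER2 MRPL52 (r = 0.977) and TLNRD1 (r = 0.971), for NR4A1 TMEM43 (r = 0.978) and KLHL25 (r = 0.975), and for NR4A3 IRAK2 (r = 0.960) and PLA2G4C (r = 0.954). NR4A2 had the weakest likeness, to PAIP1P2 (r = 0.814) and an unnamed gene (r = 0.813). All points share libraries and depth and fall into 4 groups, so these are descriptions of the group pattern.

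The labelled cell types were checked on marker genes. The 6 promyelocyte markers summed to 7782 to 8620 CPM in vehicle promyelocytes and 2247 to 2465 CPM in vehicle granulocytes. The 10 granulocyte markers summed to 160 to 168 and 4833 to 5096 CPM in the same groups. Most of the promyelocyte sum was MPO, at 6427 and 2020 CPM in these groups, while ELANE stood at 1.79 and 0.0222 CPM. Most of the granulocyte sum in vehicle granulocytes was CYBB, NCF1 and CD38, at 2108, 1218 and 1165 CPM. Granule genes of late neutrophils, LTF and MMP8, had 0 counts in all promyelocyte libraries and at most 2 in any granulocyte library, so the granulocytes lacked these defining markers. With TNF-α the promyelocyte markers summed to 6400 to 7295 CPM in promyelocytes, with 4 of 6 lower, and to 2181 to 2387 CPM in granulocytes, with 1 of 5 lower, while the granulocyte markers summed to 267 to 283 CPM in promyelocytes, with 2 of 8 higher and 1 lower, and 5441 to 5784 CPM in granulocytes, with 4 of 8 higher and 3 lower. The 7 monocyte and macrophage markers summed to 3.94 to 4.80 CPM and 49.1 to 51.4 CPM in vehicle promyelocytes and granulocytes and 2.96 to 3.91 and 30.4 to 34.1 CPM with TNF-α, nearly all of it CSF1R, while CD14 never exceeded 12 counts. Lymphoid markers summed to at most 23.3 CPM and erythroid and megakaryocyte markers to at most 2.14 CPM in any library, with HBB, HBA1 and PF4 at 0 counts throughout. In bulk RNA, fewer cells of a type and less RNA per cell cannot be told apart, and the part of these marker differences in the values above was not tested.

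No exon of a member overlaps an exon of another gene on its own strand in the annotation. Exons of EGR3, NR4A1, IER2 and IER3 each overlap exons of 1 gene on the opposite strand, which is NR4A1AS for NR4A1 and IER3-AS1 for IER3. The authors counted by strand, so these genes were counted apart.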

How the data were processed

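Ribosome-depleted total RNA of 12 libraries was sequenced from paired ends. The authors aligned the reads to hg38 with STAR 2.5.3a and counted read pairs per GENCODE gene with featureCounts 1.5.2, and deposited these raw counts without normalization. Per the file header, counting used primary alignments with both ends mapped and not chimeric, on the reverse strand. Groups and replicate numbers came from the titles. Counts were scaled by TMM and tested in edgeR 4.0.16 (R 4.3.3) by the quasi-likelihood test, after filterByExpr (minimum count 10, minimum total 15), with Benjamini-Hochberg adjustment over all genes tested and a threshold of 0.05. Each cell type was fitted alone for its response, and all 12 libraries were fitted together for differences between the cell types. Log2 fold changes use a prior count of 0.125. CPM values of each library are on the scale of all 12 libraries, and their group means are given ± SD (n = 3). Standard errors were derived from the fold change and the F statistic, and 95% intervals are the estimate ± the normal quantile times that error. Floors and intervals of count ratios cover counting error only. Same-numbered libraries of different groups did not deviate together (correlations of their deviations from group means between -0.184 and 0.0785), so no pairing by replicate number was seen. Differently numbered libraries were not set beside them. No pair of replicates agreed within sampling noise. With 3 libraries per group, precision is set by their spread.

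The 10 genes and all lists were chosen with earlier results of these data known. Named genes are the 10 members; from each other list and cell type, up to 2 raised and 2 lowered genes with the largest change among called genes of at least 1 CPM in a group; and, for each member, the 2 genes with the highest correlation. Some genes that this rule names are not reported here. Promoter windows came from RefSeq (GRCh38.p14), and gene positions from the deposited table. Alternatives were DESeq2's size factors, upper-quartile scaling, no filter, DESeq2 1.42.0, the replicate number as a block, all 12 or only the 6 libraries compared, and leaving out each library. The removal of GC and gene length trends was added after seeing the data. The procedure was tested on simulated data. The public data and PCR measurements that the study also used were not analysed here.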

Additional observations from a re-analysis of the deposited data

Results flagged for a closer look

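The TNF-α response differed between granulocytes and promyelocytes, by the interaction test over 12 libraries (edgeR, adjusted over 18124 genes), for 6 of the 10 genes, and these are given as log2 fold change in granulocytes minus that in promyelocytes. EGR3 differed by 2.29 (adjusted p = 0.00117) and EGR2 by 1.89 (adjusted p = 0.00224), and neither exceeded 13 counts in a vehicle promyelocyte library. NR4A1 differed by 2.18 (adjusted p = 0.0360), from 5 counts in all vehicle granulocyte libraries. IER2 differed by 0.86 (adjusted p = 3.25e-07), IER3 by 0.72 (adjusted p = 0.0154) and IER5 by 0.62 (adjusted p = 0.000113). The cell types were run as separate experiments, so cell type and experiment cannot be told apart in any of these.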

How the results depend on the processing

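Over settings other than leaving out a library, 313 values for the 10 genes kept their direction and their side of the threshold, 8 newly passed it, 6 no longer passed it and 4 changed sign. Over the fits that each leave out 1 library these numbers were 448, 8, 8 and 10. The 4 sign changes were all of IER5 in vehicle granulocytes against vehicle promyelocytes, which was near 0 throughout: 0.0081 with DESeq2's size factors, 0.11 with upper-quartile scaling, 0.0087 with DESeq2 and 0.052 with GC and length trends removed. Leaving out libraries moved IER5 from -0.088 to 0.082 and NR4A2 from -0.26 to 0.31 in that comparison, EGR3 from -0.22 to 0.50 and IER2 from -0.020 to 0.11 in promyelocytes, and the NR4A3 response difference from -0.083 to 0.49, and none of these was called in any such fit.

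The genes called lower in granulocytes numbered 2 in place of 1 with no filter, since NR4A2 was added, and 1 to 2 without single libraries. The genes with a lower response in granulocytes numbered 1 with DESeq2's size factors, 1 with upper-quartile scaling, 1 with no filter, 1 with the replicate block and 2 with GC and length trends removed, in place of 0, and 0 to 1 without single libraries. Genes lower in vehicle granulocytes numbered 1 in place of 2 under upper-quartile scaling, and genes lower in TNF-α granulocytes 1 to 2 without single libraries. Over all genes, 653 to 1160 were lower in promyelocytes without single libraries, with 653 and 667 without vehicle library 2 or TNF-α library 2, against 1081 with all. Of the genes called in the response difference, 44.2% were higher with no filter, 46.1% with DESeq2 and 49.3% with GC and length trends removed, against 58.9%. No pairing of libraries by replicate number was seen. A fit with the replicate block added the NR4A2 response difference (log2 -0.97, adjusted p = 0.0434) and lost that of NR4A1 (log2 2.12, adjusted p = 0.0763), and changed no other call among the 10 genes. The cause of these changes was not tested. Depth limits EGR2, EGR3, NR4A1 and NR4A3 most, with 22 counts or fewer per vehicle promyelocyte library.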
